A study of Mus musculus with 6 samples.

Results

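Myc and 35 genes that act with it or build ribosomes were followed in mouse CD8+ T cells with and without extra PTMA, or prothymosin alpha, an acidic protein of the nucleus. The genes were chosen by name, as Myc, its partner Max, the machinery of RNA polymerase I (Pol I) and the nucleolar factors that process ribosomal RNA. All 36 had a single row among the 27480 genes of the deposited table, and all 36 passed the filter on low counts. The cells were OT1, that is, CD8+ cells carrying a transgenic T cell receptor for an ovalbumin (OVA) peptide. There were 3 libraries of cells with an overexpression (OE) vector and 3 of cells with OE PTMA, all labelled as wild type in genotype and all stimulated with OVA peptide for 48 h. The labels do not give the promoter, the delivery or the species of the construct, or the age of the mice. Nor do they say whether replicates are independent cultures or mice, and every p-value therefore reflects library-to-library spread alone, part of which may be technical. Values of single libraries are given in the order of their labelled replicate number, 1 to 3, vector before PTMA.

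Ribosome production starts when Pol I copies the ribosomal DNA into one long precursor RNA. Small nucleolar ribonucleoproteins (snoRNPs) then modify and cut it, and separate sets of factors assemble its pieces into the small and the large subunit. Myc, bound to DNA as a pair with Max, is known to raise the transcription of many of these factors, and T cells induce Myc and enlarge their nucleoli within hours of antigen contact. Ptma is itself a known Myc target.

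Total counts ran from 54989408 to 66767589 per library. Levels are given in CPM, counts scaled to a common library size after TMM, a factor that evens out composition between libraries. A count of 0 allows up to 3 counts, or 0.0456 to 0.0536 CPM, and every member had at least 1430 counts in every library. Ptma stood at 848, 783 and 1146 CPM with vector and 1152, 1346 and 1272 CPM with PTMA, with a log2 fold change of 0.44 (SE 0.13; edgeR quasi-likelihood, adjusted p = 0.951). The labelled cell type held in its markers, with Cd8a at 598 to 682 CPM and Cd4 at 0.185 to 1.19 CPM. Among 10 lists of cell type markers, 7 oocyte genes summed to 23.5 to 34.4 CPM in the vector and 1.56 to 4.15 CPM in the PTMA libraries, with Zp2 and Ooep at a count of 0 in all PTMA libraries. The 6 dendritic cell genes summed to 10.5 to 12.5 CPM in the vector and 17.3 to 22.5 CPM in the PTMA libraries, with Ccl17 at a count of 0 in all vector libraries. The summed level also did not overlap for B cell genes (4.01 to 4.95 against 5.43 to 6.69 CPM) and genes of stroma and endothelium (203 to 207 against 212 to 217 CPM), vector against PTMA. Nor did it for erythroid genes (0.248 to 0.387 against 0.0765 to 0.122 CPM). No erythroid gene passed the filter on low counts, and their sums with PTMA lie near the level that a count of 0 allows for each gene. The other 5 lists overlapped. Of single tested genes, 5.39% lay higher with PTMA without overlap and 5.38% lower. The part of RNA of other cell types in the results was not tested.

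None of the 36 messages passed the test between PTMA and vector cells. With edgeR's quasi-likelihood test, 0 of 36 passed an adjusted p of 0.05, where 0.0121% of all 16592 tested genes did. At an unadjusted p under 0.05 there were also 0 of 36, where 4.65% of all tested genes stood. DESeq2 called 0 of 36 as well, where it called 0.253% of all genes. The adjusted p of the members ran from 0.951 to 0.995. The log2 fold changes, PTMA minus vector, ran from -0.25 for Polr1a to 0.43 for Max. Of the 36, 26 were above 0, and the median was 0.04, beside -0.01 and 46.8% above 0 over all genes tested. Over the 8843 tested genes with a mean of at least 10 CPM, as all members have, the median was 0.01 and 54.9% were above 0. On leaving out a single library the sign turned for 15 of the 36, Myc among them. For 35 of 36 the 95% interval lay within 1.5-fold in either direction, the exception being Max.

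**Figure D1:**
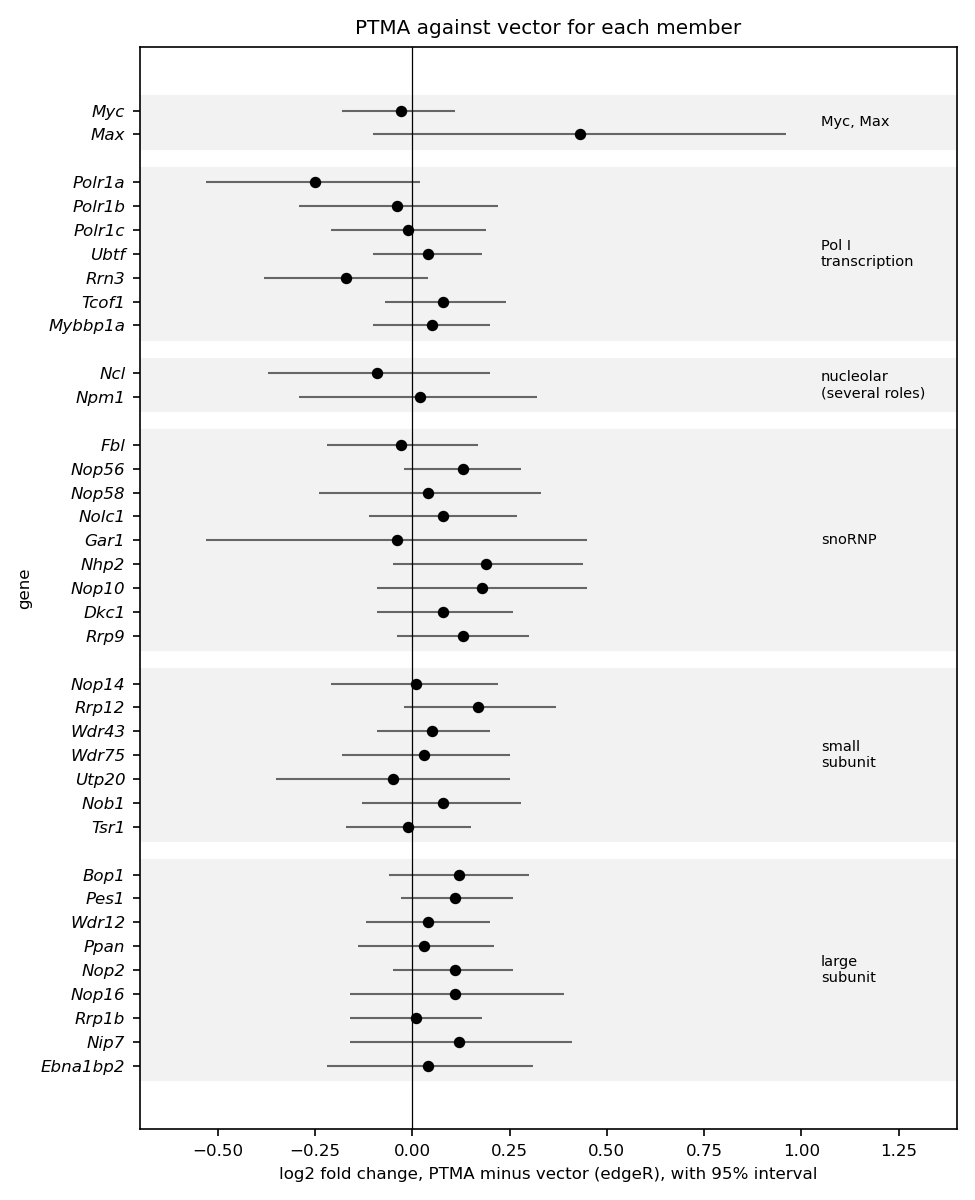
Log2 fold change of each of the 36 genes, PTMA minus vector (points), with its 95% interval from the edgeR fit (lines), ordered by step. The points run from -0.25 for Polr1a to 0.43 for Max, and all 36 intervals include 0.

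Myc, the transcription factor, was abundant and even. It stood at 332, 310 and 308 CPM with vector and 316, 312 and 300 CPM with PTMA. The groups overlapped, and all 6 libraries lay close together. The log2 fold change was -0.03 (SE 0.06), with a 95% interval of -0.18 to 0.11. Of all 36 genes Myc had the second highest level per length, at 105 ± 5.62 FPKM in vector and 102 ± 2.02 FPKM in PTMA (SD, n = 3 per group). FPKM is a count scaled to the length of the gene and the size of the library.

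Max, the partner that Myc needs to bind DNA, differed in a single library. It stood at 46.8, 49.4 and 43.8 CPM with vector and 92.7, 49.1 and 46.9 CPM with PTMA. PTMA 1 was 1.88 times the next highest library, while the other 5 spanned 43.8 to 49.4 CPM. The log2 fold change was 0.43 (SE 0.23; edgeR, adjusted p = 0.951) with all libraries and 0.04 without PTMA 1 (adjusted p = 0.992). Such an excess was rare: of 8843 genes with a mean of at least 10 CPM, 13 had 1 library at 1.5 times the next or more, and Max was the only 1 of these in PTMA 1. This ratio was chosen after the values of Max were seen. Max shares its strand and part of its span with the gene model Gm47218, whose reads may not be told apart from those of Max. Fntb, a neighbour of Max on chromosome 12, had 47.5 CPM in PTMA 1, within its range of 42.3 to 52.5 CPM over all libraries. Max lies on chromosome 12 from 76937269 to 76962201 and Myc on chromosome 15 from 61985391 to 61990350 (GRCm38).

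**Figure D2:**
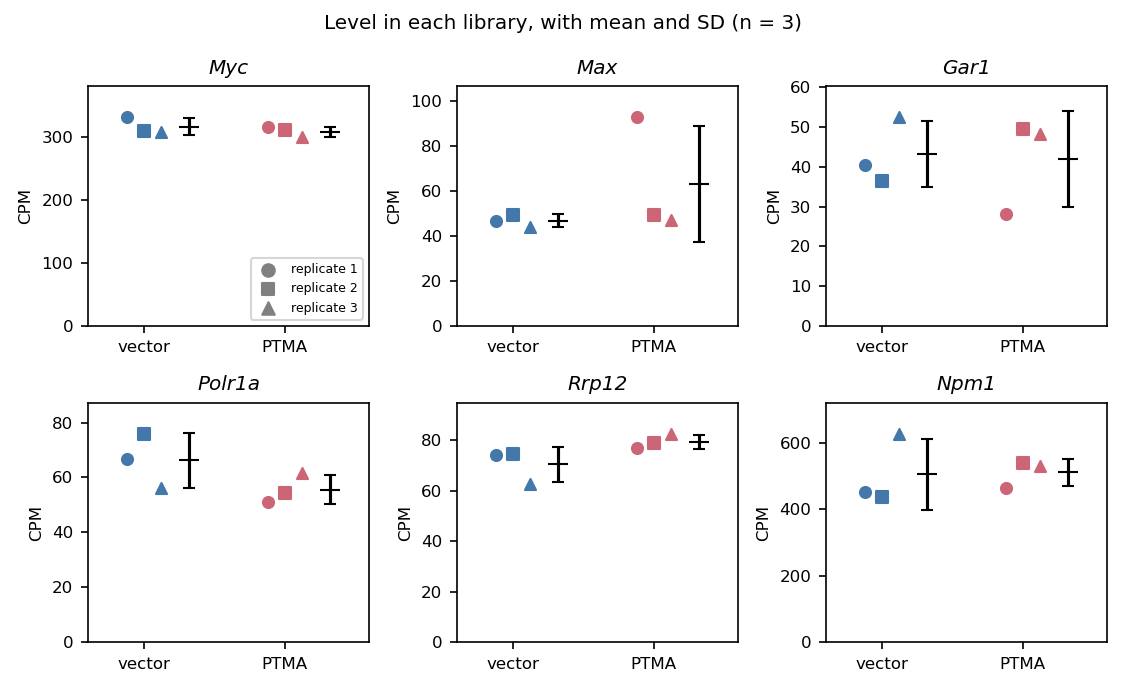
CPM of Myc, Max, Gar1, Polr1a, Rrp12 and Npm1 in each library (symbols mark the replicate number), with the mean and SD of each group beside them (n = 3). Max at 92.7 CPM and Gar1 at 28.1 CPM in PTMA 1 stand apart from their groups, as does Npm1 at 627 CPM in vector 3.

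Myc and Max pairs bind the E-box CACGTG, a palindrome that reads the same on both strands. The set of RefSeq promoters used here (GRCm38.p6, 250 bases before to 50 after a transcript start) held 30 of the 36 genes. It did not hold Myc, Tcof1, Npm1, Fbl, Rrp12 and Bop1, and it covered only a part of the tested genes. The letters CACGTG stood in a promoter of 8 of the 30 genes (26.7%). This is beside 11.5% of the 10637 tested genes in the set and 8.09% of all its 27025 genes. The palindrome CAGCTG, a different E-box, stood in 6 of the 30 and in 17.7% of the tested genes. CACGCG or its reverse CGCGTG stood in 33.3% and 19.3%. The windows below show the E-box in capitals with 12 bases on each side, on the strand of the gene, because they are the sites a reader would look up first for Myc and Max at these genes.
Max: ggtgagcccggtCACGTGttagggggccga
Nop2: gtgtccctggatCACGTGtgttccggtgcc
Pes1: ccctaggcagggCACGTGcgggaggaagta
Rrn3, distal: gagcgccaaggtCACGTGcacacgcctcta
Rrn3, proximal: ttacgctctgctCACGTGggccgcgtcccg
Tsr1: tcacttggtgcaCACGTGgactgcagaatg
Wdr43: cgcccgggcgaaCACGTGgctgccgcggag
Their positions are chr12:76962234-76962263 (minus strand) for Max, chr6:125131811-125131840 for Nop2, chr11:3963965-3963994 for Pes1, chr16:13780472-13780501 and chr16:13780639-13780668 for Rrn3, chr11:74898092-74898121 for Tsr1 and chr17:71616220-71616249 for Wdr43, all on the plus strand but Max. Counted from the transcript start, whose first base is 1 and whose preceding base is -1, the E-box began at -3 in Max, -60 in Nop2, and -215 and -48 in Rrn3. It began at 3 in Pes1, 18 in Wdr43 and 25 in Tsr1. Those of Mybbp1a and Utp20 lay too near an end of the promoter window to be shown with 12 bases on each side. A match is a string of letters and not a measured binding site. The 8 genes with CACGTG had log2 fold changes from -0.17 to 0.43 with a median of 0.05, and the 22 without it from -0.25 to 0.19 with a median of 0.04.

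The 7 genes of Pol I transcription had 3 of 7 above 0 and a median log2 fold change of -0.01. Polr1a, the largest subunit of Pol I, had the smallest p-value of all 36 genes. It stood at 66.7, 75.9 and 56.0 CPM with vector and 51.0, 54.4 and 61.5 CPM with PTMA. PTMA 3 lay above vector 3, so the groups overlapped. The log2 fold change was -0.25 (SE 0.12; edgeR, adjusted p = 0.951), and on leaving out single libraries it ran from -0.36 without vector 3 (adjusted p = 0.206) to -0.13 without vector 2 (adjusted p = 0.998). Rrn3, which brings Pol I to the promoter of the ribosomal DNA, stood at 61.4, 64.8 and 52.8 CPM with vector and 54.5, 51.2 and 53.1 CPM with PTMA, with a log2 fold change of -0.17 (SE 0.09). Polr1b, the other large catalytic subunit, had -0.04 (SE 0.11), and Polr1c, which Pol I shares with Pol III, had -0.01 (SE 0.09). On the positive side lay Ubtf, which binds the ribosomal DNA promoter, at 0.04 (SE 0.06), and the nucleolar protein Mybbp1a at 0.05 (SE 0.07). Tcof1, which encodes treacle, a nucleolar scaffold for Pol I transcription, had the highest FPKM of the step. It stood at 210, 218 and 195 CPM with vector and 229, 219 and 213 CPM with PTMA, with a log2 fold change of 0.08 (SE 0.07). Its groups overlapped, vector 2 being higher than PTMA 3.

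Nucleolin (Ncl) and nucleophosmin (Npm1) are abundant nucleolar proteins with several roles, from chromatin to ribosome export. Npm1 had the highest level per length of the 36 genes, 170 ± 29.8 FPKM in vector and 173 ± 14.0 FPKM in PTMA (SD, n = 3 per group). Npm1 stood at 453, 437 and 627 CPM with vector and 464, 540 and 530 CPM with PTMA. Ncl stood at 416, 400 and 553 CPM with vector and 381, 458 and 451 CPM with PTMA. Both were highest in vector 3 and low in vector 1, vector 2 and PTMA 1. The log2 fold change was 0.02 (SE 0.13) for Npm1 and -0.09 (SE 0.13) for Ncl. Without vector 3 it was 0.20 for Npm1 (edgeR, adjusted p = 0.259) and 0.08 for Ncl (adjusted p = 0.716). Leaving out their highest vector library was bound to raise both.

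The 9 snoRNP genes had 7 of 9 above 0 and a median log2 fold change of 0.08. The median was 0.17 without vector 3, 0.15 without PTMA 1 and 0.05 without vector 1. Box C/D particles guide the methylation of ribosomal RNA and hold fibrillarin (Fbl, the methyltransferase), Nop56 and Nop58. Nop56 stood at 303, 309 and 333 CPM with vector and 333, 358 and 342 CPM with PTMA, with vector 3 and PTMA 1 nearly equal. Its log2 fold change was 0.13 (SE 0.07), with a 95% interval of -0.02 to 0.28. Nop58 stood at 129, 128 and 174 CPM with vector and 134, 157 and 155 CPM with PTMA (0.04, SE 0.12). Fbl stood at 93.9, 96.0 and 100 CPM with vector and 84.4, 102 and 98.4 CPM with PTMA (-0.03, SE 0.09). Vector 3 was the highest library for Nop58 and PTMA 1 the lowest for Fbl. The ratio of counts of Fbl to Nop56, which needs no scaling between libraries, was 0.310, 0.310 and 0.300 with vector and 0.253, 0.285 and 0.287 with PTMA, without overlap. The ratio of Nop58 to Nop56 overlapped, at 0.455 ± 0.0586 and 0.430 ± 0.0260 (SD, n = 3 per group).

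Box H/ACA particles guide the pseudouridylation of ribosomal RNA and hold dyskerin (Dkc1, the enzyme), Gar1, Nhp2 and Nop10. Nhp2 stood at 104, 108 and 137 CPM with vector and 131, 142 and 127 CPM with PTMA, and had the highest FPKM of the snoRNP genes. Nop10 stood at 87.5, 76.8 and 109 CPM with vector and 105, 106 and 99.8 CPM with PTMA. Dkc1 stood at 205, 212 and 242 CPM with vector and 223, 242 and 233 CPM with PTMA. For all 3, vector 1 and vector 2 lay below the PTMA libraries and vector 3 lay among or above them. Their log2 fold changes were 0.19 (SE 0.11), 0.18 (SE 0.12) and 0.08 (SE 0.08). Without vector 3 those of Nhp2 and Nop10 were 0.33 and 0.34 (edgeR, adjusted p = 0.191 for both). Vector 3 was the highest vector library for both genes, so leaving it out was bound to raise them. Over all single libraries left out they ran from 0.12 to 0.33 for Nhp2 and from 0.08 to 0.34 for Nop10. Gar1 stood at 40.6, 36.4 and 52.5 CPM with vector and 28.1, 49.5 and 48.3 CPM with PTMA. PTMA 1 was its lowest library, the next being 1.3 times as high. The log2 fold change was -0.04 (SE 0.22) with all libraries and 0.18 without PTMA 1 (edgeR, adjusted p = 0.99). The ratio of counts of Gar1 to Dkc1 was 0.126 in PTMA 1 and 0.172 to 0.217 in the other libraries. Nolc1, a chaperone of both kinds of particle, had 0.08 (SE 0.08). Rrp9, which binds the U3 particle that starts precursor cleavage, stood at 61.2, 65.9 and 63.4 CPM with vector and 67.6, 72.8 and 67.7 CPM with PTMA. On this scale it was higher in each PTMA library than in any vector library, but its FPKM overlapped, at 18.6, 21.1 and 18.7 with vector and 20.7, 22.1 and 21 with PTMA. It had a log2 fold change of 0.13 (SE 0.07; edgeR, adjusted p = 0.951).

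The 7 genes of small subunit processing had 5 of 7 above 0 and a median log2 fold change of 0.03, which ran from 0.01 without PTMA 2 to 0.08 without vector 3. Rrp12, which takes part in maturation and export of pre-ribosomes, stood at 74.0, 74.6 and 62.6 CPM with vector and 76.9, 78.8 and 82.5 CPM with PTMA. The groups did not overlap in CPM, and vector 3 was the lowest library. In FPKM they did, at 15.2, 16.2 and 12.5 with vector and 15.9, 16.2 and 17.3 with PTMA. The log2 fold change was 0.17 (SE 0.09; edgeR, adjusted p = 0.951), and 0.10 without vector 3 (adjusted p = 0.516). Wdr43, a subunit of the complex that binds the nascent precursor, had the highest FPKM of the step and stood at 165, 168 and 176 CPM with vector and 174, 172 and 182 CPM with PTMA (0.05, SE 0.06). Its groups overlapped in vector 3. Wdr75 of the same complex had 0.03 (SE 0.10) and Nop14, a scaffold of the early particle, 0.01 (SE 0.09). Nob1, the nuclease that makes the mature end of 18S RNA, had 0.08 (SE 0.09), and the late factor Tsr1 -0.01 (SE 0.07). Utp20, a very large protein of the early particle, was the rarest of the 36 per length, at 2.38 ± 0.418 FPKM in vector and 2.29 ± 0.303 FPKM in PTMA (SD, n = 3 per group), with -0.05 (SE 0.13).

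In large subunit processing 9 of 9 genes had log2 fold changes above 0, from 0.01 to 0.12, with a median of 0.11, and none passed the test. Over all tested genes 46.8% were above 0, over those with a mean of at least 10 CPM 54.9%, and over the other genes of this step 74.1%. The count was 8 of 9 with library sizes only and with upper quartile factors, where Rrp1b was not above 0, and 7 to 9 of 9 on leaving out single libraries, with Ebna1bp2, Ppan or Rrp1b not above 0. The median was 0.04 without PTMA 2 and 0.05 without vector 2. Pes1, Bop1 and Wdr12 form PeBoW, a complex needed for 28S and 5.8S RNA maturation. Pes1 stood at 124, 123 and 133 CPM with vector and 135, 137 and 139 CPM with PTMA, without overlap (log2 fold change 0.11, SE 0.07; edgeR, adjusted p = 0.951). Bop1 stood at 185, 198 and 168 CPM with vector and 211, 187 and 200 CPM with PTMA (0.12, SE 0.08). Wdr12 stood at 79.8, 76.7 and 85.4 CPM with vector and 82.7, 82.9 and 82.9 CPM with PTMA (0.04, SE 0.07). Bop1 and Wdr12 overlapped between the groups. The ratio of counts of Wdr12 to Pes1 was 0.645, 0.625 and 0.642 with vector and 0.614, 0.607 and 0.595 with PTMA. It did not overlap, while that of Bop1 to Pes1 did, at 1.46 ± 0.176 and 1.46 ± 0.0997 (SD, n = 3 per group). Of the 9 ratios computed within pairs of members, that of Wdr12 to Pes1 and that of Fbl to Nop56 did not overlap. Both were singled out after their values were seen. How often ratios of other gene pairs lie without overlap was not computed, so no change in the make-up of a complex is read from them. The remaining members were Nop2, a methyltransferase of 28S RNA (0.11, SE 0.07), Nop16 (0.11, SE 0.12), Nip7 (0.12, SE 0.13), Ebna1bp2 (0.04, SE 0.12), Ppan (0.03, SE 0.08) and Rrp1b (0.01, SE 0.07), all nucleolar factors of precursor processing.

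In TMM-scaled CPM, Rrp9, Rrp12 and Pes1 were higher in every PTMA library than in any vector library, and 0 of the 36 were lower in every one. That is 3 of 36, where 5.39% of all tested genes lay higher without overlap and 5.38% lower, and 7.57% of those with a mean of at least 10 CPM lay higher. The set depended on the scale: with library sizes only, and in the deposited FPKM, it was Pes1 and Nop56, 2 of 36, so Pes1 was the member without overlap on all 3 scales. Rrp9 overlaps Parp3 and Pes1 overlaps 4930556J24Rik on the opposite strand, and since the strand setting is not known, reads of such pairs cannot be told apart. The ordered plot of all members by library shows how far the replicates of 1 group lay apart.

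**Figure D3:**
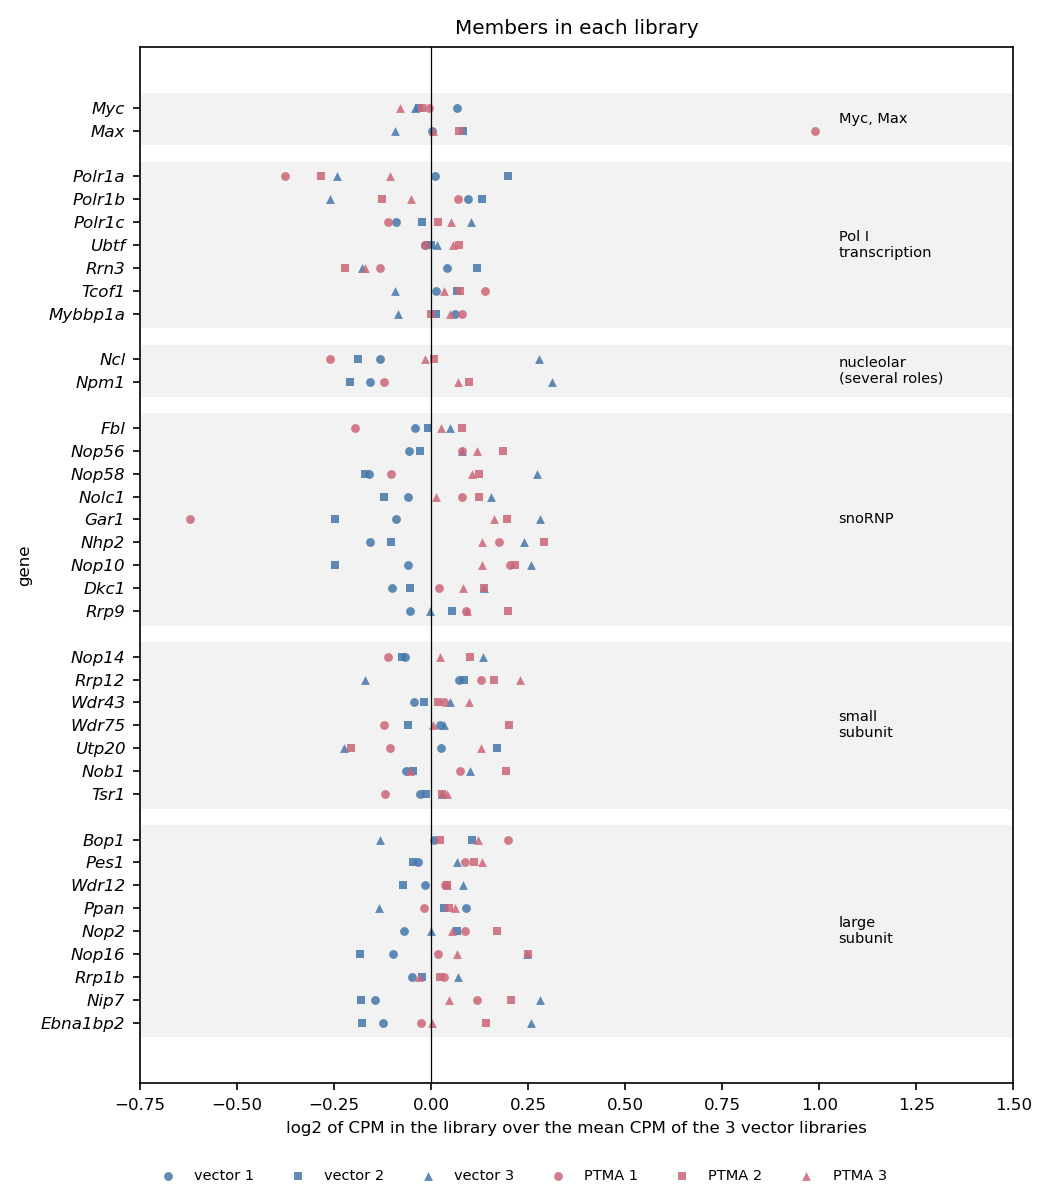
Level of each of the 36 genes in each library as log2 of its CPM over the mean CPM of the 3 vector libraries, ordered by step, with colour for the group and symbol for the replicate number. Vector 3 (blue triangles) lies to the right for genes such as Npm1, Ncl and Nop58 and to the left for Polr1b, Rrp12 and Utp20, and Max in PTMA 1 lies alone on the far right.

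Per length, Npm1, Myc, Nhp2, Nop10 and Nop56 led the 36 genes, with means over all libraries of 171, 104, 97.7, 78.8 and 72.3 FPKM. Polr1a and Utp20 came last, at 4.62 and 2.34 FPKM. Nhp2 and Myc do not differ beyond their spread, since Nhp2 spanned 81.0 to 110 FPKM over the libraries and Myc 98.4 to 109 FPKM. FPKM depends on the length that was used. Taking each library's total count as its size, the length implied by count and FPKM was 1.1 times the union of all annotated exons. This held for each of the 36 genes. The library size used for the FPKM is not given, so the factor of 1.1 need not mean a length beyond that union. That union was 10.8 kb for Nop58, 10.2 kb for Ncl and 12 kb for Wdr12, whereas their coding lengths were 1.33, 2.12 and 1.27 kb, and a longer length gives a lower FPKM. These 3 genes had 12.2, 39.0 and 6.14 FPKM.

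Vector 3 was the library that most often stood at an extreme. It was the highest of the 6 libraries for 12 of the 36 genes and the lowest for 8, beside 25.1% and 23.1% of 8843 genes with a mean of at least 10 CPM. Over those 8843 genes vector 2 was nearly level, being highest for 20.9% and lowest for 25.3%. Among the 36 genes vector 2 was highest for 4 and lowest for 9. Against the mean of vector 1 and vector 2 on the log2 scale, vector 3 was highest for Npm1 (0.50), Gar1 (0.45), Nip7 (0.44), Ncl (0.44) and Nop58 (0.43). It was lowest for Polr1b (-0.37), Polr1a (-0.34), Utp20 (-0.33), Rrn3 (-0.26) and Rrp12 (-0.25). Genes with short coding sequences tended to be high and those with long ones low: Nop10, with 0.192 kb, had 0.42, and Utp20, with 8.37 kb, had -0.33. Coding length was taken after the values were seen, in place of the whole principal transcript, which had been tried first. Across the 36 genes the correlation of this difference with log2 coding length was r = -0.67 (rho = -0.64), and across 8471 genes with a mean of at least 10 CPM it was r = -0.59 (rho = -0.58). With the length of the whole principal transcript it was weaker, r = -0.40 for the 36 genes and -0.55 for the 8471, and with the union of exons -0.39 and -0.48. The genes share their libraries and are not independent replicates. Max (0.480 kb, -0.14) and Ncl (2.12 kb, 0.44) lay off this trend.

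**Figure D4:**
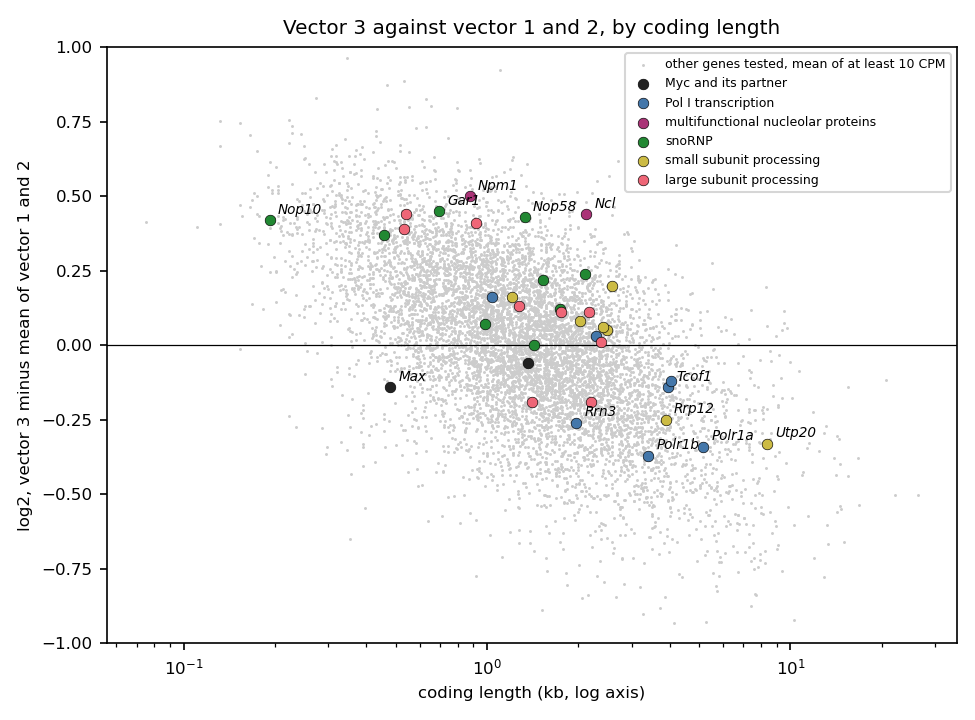
Log2 CPM of vector 3 minus the mean of vector 1 and vector 2 for the 36 genes (coloured by step) and for the other tested genes with a mean of at least 10 CPM (grey) against coding length on a log axis. The short Nop10 lies at 0.42 and the long Utp20 at -0.33, and 6 grey genes beyond 1 in either direction are not drawn.

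The comparison of PTMA with vector also varied with length. Over the 36 genes its log2 fold change had r = -0.48 (rho = -0.33) with log2 coding length, and over the 8471 genes r = -0.30 (rho = -0.33). With the whole principal transcript r was -0.38 and -0.36. Of the 18 members with a coding length up to 1.75 kb, 14 (77.8%) were above 0, beside 65.2% of 5527 genes of such length. Of the 18 longer ones, 12 (66.7%) were above 0, beside 36.1% of 2944 genes. Mitochondrially encoded messages, another measure on which libraries of 1 group differed, took 1.62%, 1.57% and 2.08% of counts with vector and 1.56%, 1.93% and 1.95% with PTMA. The part of length or RNA quality in the members' fold changes was not tested.

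Without vector 3, 30 of 36 members were above 0, where 48.5% of all genes were, the median was 0.08, and 13 had an unadjusted p under 0.05 (edgeR), 11 higher and 2 lower. That is beside 15.4% of all 17287 genes tested without vector 3. The 11 were Dkc1, Ebna1bp2, Nhp2, Nip7, Nolc1, Nop10, Nop16, Nop56, Nop58, Npm1 and Pes1, and the 2 lower ones were Polr1a and Rrn3. Vector 3 was the highest vector library for each of the 11 and the lowest for Polr1a and Rrn3. Leaving it out was bound to move these fold changes further from 0, so no conclusion is drawn from the 13. None passed after adjustment, the smallest adjusted p being 0.191, where 0.00578% of all genes passed. Leaving out both vector 3 and PTMA 1, a choice made after the data were seen, gave 28 of 36 above 0, a median of 0.12, and 16 members at an unadjusted p under 0.05, 13 of them higher, beside 17.3% of all genes. Again 0 passed (smallest adjusted p = 0.134, edgeR), while Ptma itself did, with a log2 fold change of 0.68 (adjusted p = 0.0189). For Ptma, vector 3 was the highest vector library (1146 CPM) and PTMA 1 the lowest PTMA library (1152 CPM). Leaving out both was bound to widen its difference, so no conclusion is drawn from this pass. The same holds for members with this pattern, such as Npm1, Nop58 and Gar1. The median of the members was 0.07 without PTMA 1 and 0.02 without PTMA 2.

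The other genes of the same pathways were read from 7 lists written with the steps. Of their genes 0 passed the test, where 0.0121% of all 16592 tested genes did. In the 157 other ribosome biogenesis genes 112 (71.3%) were above 0, with a median log2 fold change of 0.05. Over all tested genes 46.8% were above 0, and over those with a mean of at least 10 CPM 54.9% were. Of the latter, 65.2% with a coding length up to 1.75 kb were above 0 and 36.1% of the longer ones. The lists were not set beside genes of like coding length. The other genes of large subunit processing had 40 of 54 above 0 (median 0.07), with the smallest p-value for Rrp1 at 0.16 (SE 0.06). Those of small subunit processing had 34 of 50 (median 0.04), with the smallest p-value for Noc4l at 0.15 (SE 0.07). The other snoRNP genes had 9 of 11 (median 0.05), where Snu13, a core protein of box C/D particles, was at 0.19 (SE 0.08). Other Pol I genes had 11 of 18 (median 0.03), where Taf1d, a subunit of the promoter selectivity factor, was at -0.24 (SE 0.10). Precursor cleavage and the exosome had 18 of 24 (median 0.06), where the exosome subunit Exosc5 was at 0.17 (SE 0.07). Exosc6 of the same list varied widely, with counts of 3, 72 and 6 with vector and 187, 344 and 12 with PTMA. It was singled out after its values were seen.

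Among the other genes of the Myc network, 10 of 11 could be tested and 4 were above 0, with a median of -0.16. Mxd4, which competes with Myc for Max, stood at 102, 113 and 87.8 CPM with vector and 90.6, 86.4 and 90.1 CPM with PTMA (log2 fold change -0.18, SE 0.10). Its groups overlapped. Myc targets outside the nucleolus, among them enzymes and transporters of growth, had 32 of 38 above 0 and a median of 0.11. Without Ptma 31 of 37 were above 0 and the median was 0.11. This is beside 46.8% above 0 over all tested genes and 54.9% over those with a mean of at least 10 CPM. A comparison with genes of like coding length was not made for this list either. At an unadjusted p under 0.05 there were 7 of 38, all higher, Ptma being 1 of them, beside 4.65% of all tested genes. Slc19a1, the folate carrier, had the smallest p-value of these lists. It stood at 132, 139 and 128 CPM with vector and 157, 156 and 157 CPM with PTMA, without overlap (0.24, SE 0.06; edgeR, adjusted p = 0.951).

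**Figure D5:**
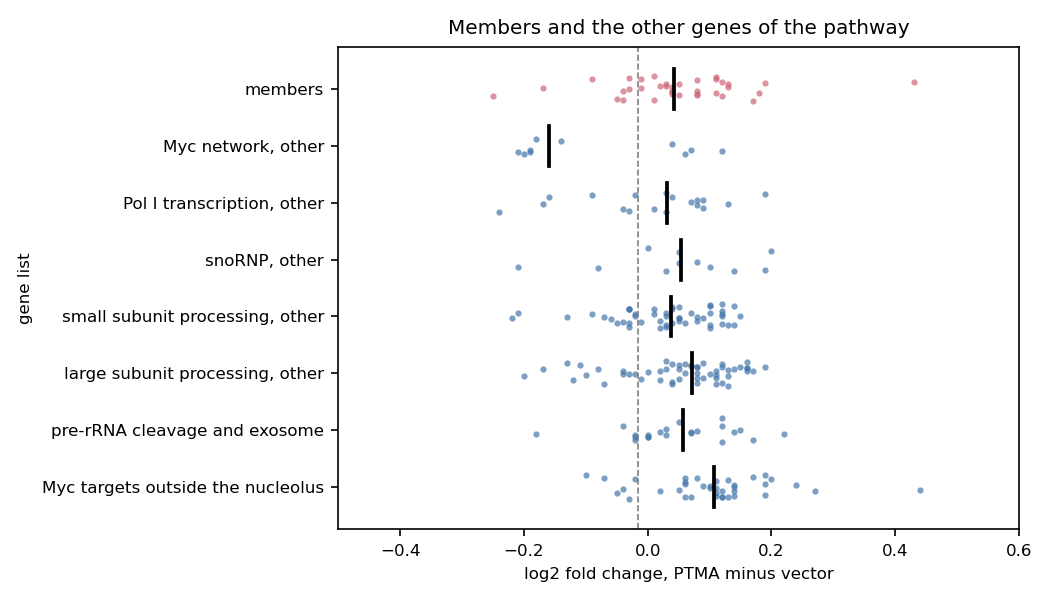
Log2 fold change, PTMA minus vector, of each gene of the 36 members (red) and of the 7 lists of other pathway genes (blue), with the list median as a black bar and the median of all tested genes as a dashed line. The medians run from -0.16 for the other genes of the Myc network to 0.11 for Myc targets outside the nucleolus, and Exosc6 at 2.70 lies off the axis.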

How the data were processed

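Messenger RNA was selected by its poly(A) tail and sequenced from both ends, per the labels' protocols, which also speak of an adipose type although the cells are CD8+ T cells. The authors deposited raw counts per gene and library, and FPKM beside them, per the file headers. Bowtie 0.12.2, HISAT2 2.0, StringTie 1.3.0 and the build mm8 appear, with no role, in the submitters' processing notes. How reads were counted, with which strand setting and with which handling of multiple matches, is not given in the sources used here. GENCODE M21 (GRCm38) holds 27405 of the table's identifiers, and for 99.7% of these its gene begins or ends at the same base, so coordinates are those of GRCm38.

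Counts were tested with edgeR 4.0.16 (R 4.3.3): TMM, filterByExpr (minimum count 10), the quasi-likelihood test on a model of group alone, and Benjamini-Hochberg adjustment over all 16592 genes at 0.05. SE is the log2 fold change over the root of F, and 95% intervals use the t distribution with the fit's degrees of freedom. Values in every library are given for Myc, Max, the member of each step with the highest FPKM or the smallest p, and the members of 3 core complexes, with Rrn3 and Rrp9 added after their values were seen. From each other list the gene with the smallest p is named. Members, lists and alternatives were chosen with earlier results of these data known. Coding lengths are those of APPRIS principal transcripts in GENCODE M21. On simulated counts for this comparison (16592 genes), the changed genes were drawn from those above a mean of 1 CPM. The test found 50.7% of the 67 set to a 1.5-fold change, 74.6% of the 67 set to 2-fold and 92.4% of the 66 set to 4-fold. It also called 15 genes that were left unchanged. These shares cover many levels and are not those of the members, which all have a mean of at least 10 CPM. Replicates of a group differed by 17.7 to 84.8 chi-square per gene, far beyond sampling noise, so none was a repeat reading of another library. Each was therefore counted as 1 library. Such a check cannot show whether they come from separate cultures or mice. Some members overlap other genes or hold snoRNAs in their introns (Nop56 and Idh3b on opposite strands, for example), and Npm1, Ncl and others can share reads with pseudogenes. Of 55 marker genes 50 had a row. Limma 3.58.1 and DESeq2 1.42.0 served as alternatives.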

Additional observations from a re-analysis of the deposited data

How the results depend on the processing

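In 17 alternatives, 1 of them chosen after seeing the data, 0 members were called, and 23 to 30 of 36 were above 0. Genes called over all genes numbered 42 with DESeq2, 1 with limma on log2(FPKM + 1) and on log2(FPKM + 0.1), 0 with limma on log2(FPKM + 1) without a filter, and 0 with no filter on low counts. The count was 0 to 4 on leaving out each library in turn. The cause was not tested. Deviations from the group mean correlated at 0.047, -0.209 and -0.139 between libraries of the same number. With 3 libraries per group these values cannot show whether such libraries share a mouse, a culture or a day, which the labels do not give. A replicate block gave 0 genes, 26 members above 0 and a median of 0.051. The median of large subunit processing was 0.042 to 0.116 over the libraries left out. The added alternative, without both vector 3 and PTMA 1, gave 11 genes called. Ptma was past the threshold (log2 fold change 0.68), but its highest vector and its lowest PTMA library were those left out. In that alternative the medians were 0.12 for all members, -0.036 for Myc and Max, 0.213 for Ncl and Npm1, 0.196 for snoRNP and 0.12 for small subunit genes. There the sign turned for 8 of 36 members: Fbl (0.08), Gar1 (0.35), Max (-0.00), Ncl (0.16), Mybbp1a, Polr1c, Ppan and Tsr1. The sign also turned for Npm1 with library sizes only (-0.01), and on leaving out single libraries for 15 of 36: Npm1 (-0.07 to 0.20), Ncl (-0.16 to 0.08), Nop58 (-0.03 to 0.20), Gar1 (-0.18 to 0.18), Fbl (-0.08 to 0.05), Myc (-0.05 to 0.00), Ebna1bp2, Nop14, Polr1b, Polr1c, Ppan, Rrp1b, Tsr1, Utp20 and Wdr75. Library sizes only and upper quartile factors also turned Nop14 and Rrp1b. No such value passed the threshold. No member neared the count floor; the effect of depth on the precision was not tested.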
